A study of Mus musculus with 6 samples.

Results

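*Ptprz1* encodes a receptor-type protein tyrosine phosphatase, and the 9 genes described here are *Ptprz1*, its closest relative *Ptprg*, the ligands *Ptn* and *Mdk*, the surface and matrix partners *Cntn1*, *Ncam1* and *Tnc*, and the other pleiotrophin receptors *Alk* and *Sdc3*. They were found by gene name among the 31613 genes of the deposited count table, and all 9 were present once and passed the filter on low counts. *Ptprz1* was picked because it was much lower in all *Dmp1*-Cre;*Setd2*fl/fl pools, so its difference is given as a description without a test. The other 8 genes were chosen as its relative or for what they are known to bind, with earlier results of these data known.

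PTPRZ1 carries an extracellular carbonic anhydrase-like domain, a fibronectin type III repeat and chondroitin sulfate chains, and a secreted form without the phosphatase domains is known as phosphacan. Pleiotrophin and midkine, the small heparin-binding proteins made from *Ptn* and *Mdk*, bind the receptor and reduce its phosphatase activity, so that phosphorylation of its substrates goes up. The receptor is best known from glial cells of the brain and has also been described in cells of the osteoblast lineage.

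Bulk RNA-seq was performed at postnatal day 6 on mouse dental papilla cells (mDPCs), a mesenchymal population that includes the precursors of odontoblasts, the dentin-forming cells. One group came from *Dmp1*-Cre;*Setd2*fl/fl mice, which carry *Setd2* alleles flanked by loxP sites and a Cre recombinase driven by the *Dmp1* promoter, and the other from control mice, named as wild type in the sample labels and as *Setd2*fl/fl mice without Cre in the methods. The floxed allele is therefore shared by both groups if the methods hold, the background is C57BL/6J, and Cre acts in the odontoblast layer and not in every cell collected. Each group had 3 libraries, each made by pooling the RNA of 3 biological replicates, so library and pool mean the same below, and since the sources do not say that the pools hold separate mice, p-values measure the spread between libraries, which may be technical in part.

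Depth was even, at 18557647 to 19210750 counts per library. *Setd2*, the targeted gene, was at 102, 98.5 and 96.0 CPM (counts scaled to library size) in *Dmp1*-Cre;*Setd2*fl/fl pools and at 97.98, 96.5 and 92.0 CPM in control pools (log2 fold change 0.05, standard error 0.09). This count takes in the whole gene and all cells collected, and so is no check on the genotype. The summed level of 13 dental papilla and pulp markers was 5067 to 5850 CPM in *Dmp1*-Cre;*Setd2*fl/fl and 5102 to 6168 CPM in control pools. Most of this sum was *Vim*, at 3577 to 4393 CPM in *Dmp1*-Cre;*Setd2*fl/fl and 3763 to 4635.5 CPM in control pools. *Msx1* had means of 344 and 333 CPM in these groups and *Pax9* of 24.0 and 22.5 CPM, so markers of the labelled cell type were present. Of the 13, *Lhx8* was called lower (log2 fold change -0.62, edgeR adjusted p = 0.625) and none higher, against 2.71% of all genes called lower. The summed level of 11 odontoblast markers, *Dspp* and *Col1a1* included, was 6448, 4517 and 37292 CPM in *Dmp1*-Cre;*Setd2*fl/fl pools and 72354, 74642 and 82294 CPM in control pools. Replicate 3 of the *Dmp1*-Cre;*Setd2*fl/fl group thus stood apart with the highest odontoblast level of its group, and replicate 3 of both groups stood apart in dental epithelium markers such as *Amelx*, which summed to 7140, 2219 and 50004 CPM in *Dmp1*-Cre;*Setd2*fl/fl and 7288, 2657 and 30259 CPM in control pools. For *Ptprz1*, the other members that could then be tested and the related genes called, values are therefore also given without replicate 3. Those fits rest on fewer libraries. Replicate 3 was singled out in these same data, so larger differences or smaller p-values without it are a description and no further support.

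*Ptprz1* (ENSMUSG00000068748) lies on the forward strand at chr6:22875502-23052916 in the deposited table, whose positions are those of GRCm38. It was counted 417, 228 and 553 times in the 3 *Dmp1*-Cre;*Setd2*fl/fl pools, against 2141, 2058 and 1496 times in the control pools. Scaled to library size, these counts were 19.9, 12.1 and 30.0 CPM in *Dmp1*-Cre;*Setd2*fl/fl pools and 114, 108 and 84.8 CPM in control pools. Every *Dmp1*-Cre;*Setd2*fl/fl pool was below every control pool, with a wide gap between 30.0 CPM in the highest of the *Dmp1*-Cre;*Setd2*fl/fl group and 84.8 CPM in the lowest of the controls. The mean was 20.7 ± 8.99 CPM (SD, n = 3) over *Dmp1*-Cre;*Setd2*fl/fl and 102 ± 15.3 CPM (SD, n = 3) in control pools, so that the *Dmp1*-Cre;*Setd2*fl/fl mean was 20.2% of the control mean.

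The edgeR fit over all genes gave *Ptprz1* a log2 fold change of -2.31 (standard error 0.33). A lower log2 fold change was found for 29 of the 16519 genes tested, and 7 of these had a control CPM at or above that of *Ptprz1*. Singly, the *Dmp1*-Cre;*Setd2*fl/fl pools reached 19.7%, 12.0% and 29.7% of the control mean, with replicate 2 lowest and replicate 3 highest. The odontoblast marker sum had the same order over these libraries, lowest in replicate 2 and highest in replicate 3. Whether fewer cells of a type or less RNA per cell lay behind a lower level cannot be told apart in bulk RNA, here or for any gene below, and the part of the lower odontoblast markers in the difference of *Ptprz1* was not tested. Without replicate 3 of both groups the log2 fold change was -2.78, and over all 14 alternative settings it ran from -2.78 to -2.03.

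**Figure D1:**
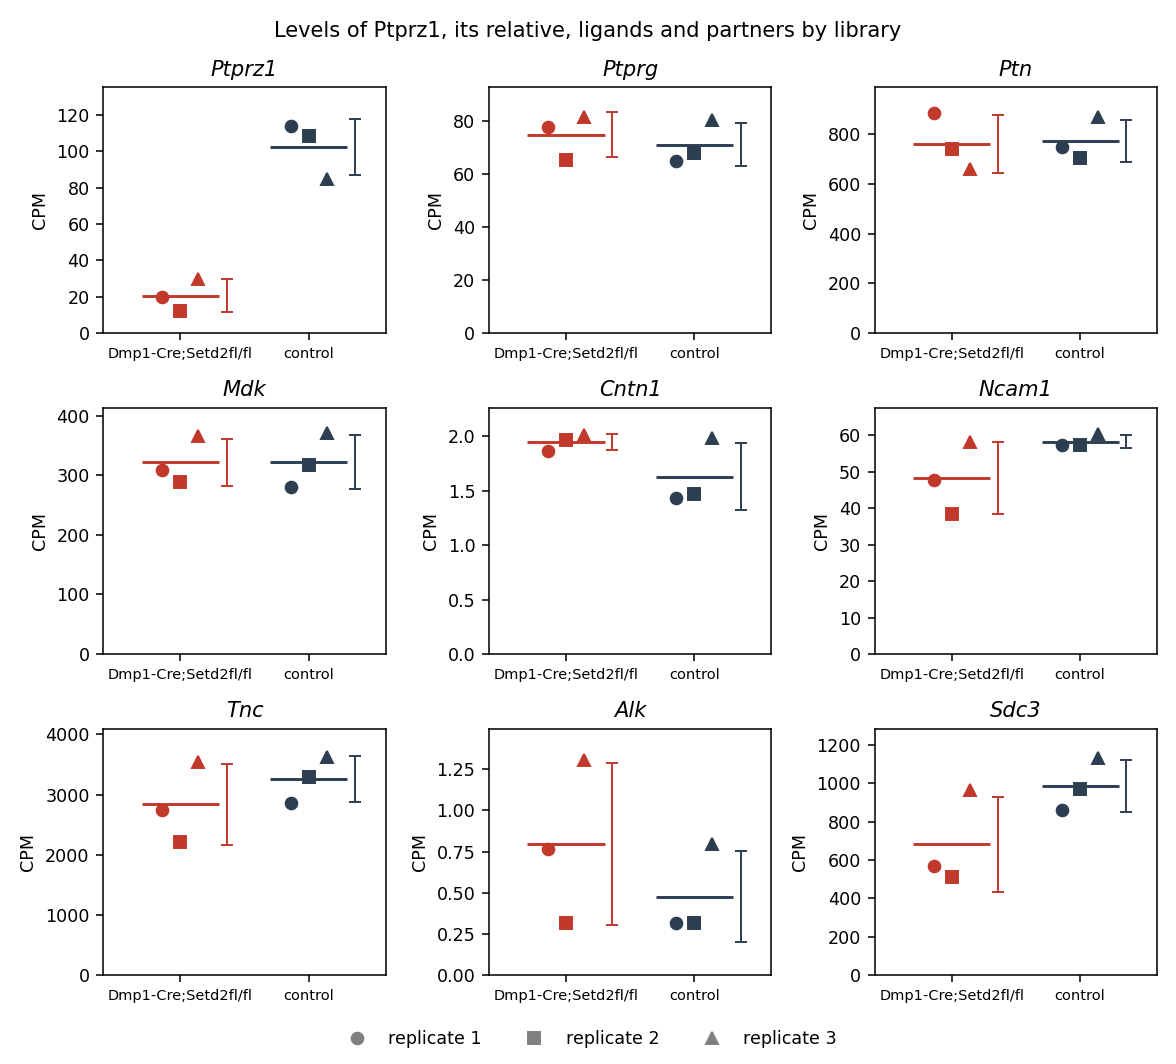
Levels of the 9 genes in CPM (y axes, from 0) in the 3 *Dmp1*-Cre;*Setd2*fl/fl pools (left, red) and the 3 control pools (right, dark blue). Symbols mark replicates 1 to 3, horizontal lines the group means and bars ± 1 SD. *Ptprz1* is the gene whose groups do not overlap, at 12.1 to 30.0 CPM in *Dmp1*-Cre;*Setd2*fl/fl and 84.8 to 114 CPM in control pools.

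The spread of *Ptprz1* was larger among *Dmp1*-Cre;*Setd2*fl/fl pools (coefficient of variation 43.5%) than among controls (15.0%), on 3 libraries each. The ratio of *Ptprz1* to the odontoblast marker *Dspp*, both per kb of exon, came to 0.0108, 0.0133 and 0.00134 in *Dmp1*-Cre;*Setd2*fl/fl pools and 0.00190, 0.00178 and 0.00144 in control pools. In replicates 1 and 2 of the *Dmp1*-Cre;*Setd2*fl/fl group, *Ptprz1* was therefore reduced less than *Dspp*, a gene for a major dentin matrix protein, whereas in replicate 3 the ratio was slightly below that of the controls. *Dspp* itself was at 436, 215 and 5299 CPM in *Dmp1*-Cre;*Setd2*fl/fl and 14165, 14372 and 13900 CPM in control pools.

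*Ptprz1* is widely used as a gene of glial cells, and Schwann cells could have been collected with the papilla. The summed level of 9 Schwann cell and glia markers was 48.9, 33.4 and 44.2 CPM in *Dmp1*-Cre;*Setd2*fl/fl pools and 52.0, 49.3 and 36.1 CPM in control pools, and the groups overlapped. None of the 8 markers tested was called lower or higher. The defining transcription factor *Sox10* was at 2.16 ± 1.01 CPM (SD, n = 3) over *Dmp1*-Cre;*Setd2*fl/fl and 2.03 ± 0.311 CPM (SD, n = 3) in control pools. Per kb of exon in the controls, *Ptprz1* was at 5.45 CPM and *Sox10* at 0.609 CPM.

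No other gene of the deposited table overlaps *Ptprz1*. The nearest tested gene on one side, *Aass*, 19.3 kb away, was at 0.699 ± 0.430 CPM in *Dmp1*-Cre;*Setd2*fl/fl and 0.650 ± 0.298 CPM in control pools (SD, n = 3 each; log2 fold change 0.10, standard error 0.56, edgeR adjusted p = 0.974). On the other side *Fam3c*, 519.3 kb away, was at 59.6 ± 29.6 CPM in *Dmp1*-Cre;*Setd2*fl/fl and 51.7 ± 22.5 CPM in control pools (SD, n = 3 each; log2 fold change 0.20, standard error 0.42, adjusted p = 0.912). Neither neighbour passed the test, and both varied widely within a group, with coefficients of variation of 43.5% to 61.5%.

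The promoters of *Ptprz1*, of its relative *Ptprg*, and of *Col11a1*, the gene whose profile over the 6 libraries was nearest to that of *Ptprz1*, are shown because the first and the last were low in the same libraries while *Ptprg* was not. Each runs over 300 bases, from 250 bases before the RefSeq transcription start to 50 bases after it (RefSeq, GRCm38.p6, forward strand, 5′ to 3′), and capitals mark the GC box GGGCGG or its reverse complement CCGCCC.
*Ptprz1*, chr6:22875252-22875551: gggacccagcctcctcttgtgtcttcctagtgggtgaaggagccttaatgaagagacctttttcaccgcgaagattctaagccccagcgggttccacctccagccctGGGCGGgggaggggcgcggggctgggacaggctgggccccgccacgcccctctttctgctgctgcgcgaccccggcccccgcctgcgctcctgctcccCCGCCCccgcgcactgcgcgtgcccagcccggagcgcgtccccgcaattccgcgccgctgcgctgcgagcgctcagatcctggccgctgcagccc
*Ptprg*, chr14:11553303-11553602: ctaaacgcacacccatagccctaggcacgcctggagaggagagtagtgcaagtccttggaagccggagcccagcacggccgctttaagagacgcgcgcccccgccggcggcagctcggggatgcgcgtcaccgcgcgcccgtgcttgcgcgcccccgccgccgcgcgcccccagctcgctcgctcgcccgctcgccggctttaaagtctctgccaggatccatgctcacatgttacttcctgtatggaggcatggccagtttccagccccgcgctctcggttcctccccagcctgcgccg
*Col11a1*, chr3:114030290-114030589: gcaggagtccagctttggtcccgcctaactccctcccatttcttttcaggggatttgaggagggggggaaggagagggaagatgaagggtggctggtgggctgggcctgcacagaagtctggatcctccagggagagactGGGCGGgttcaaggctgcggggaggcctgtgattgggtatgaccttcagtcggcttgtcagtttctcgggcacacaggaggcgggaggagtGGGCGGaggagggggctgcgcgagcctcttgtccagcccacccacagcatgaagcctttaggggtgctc
The *Ptprz1* promoter was 71.7% G or C and held 29 CpG dinucleotides, that of *Ptprg* 69.0% with 36, and that of *Col11a1* 62.3% with 9, where the median G or C content of all 32851 mouse promoters in the table was 52.7%. The GC box, the letters bound by Sp1-type factors, was found 2 times in the *Ptprz1* window, its first letter 143 and 45 bases before the start, also 2 times in that of *Col11a1* at 110 and 19 bases before it, and not in that of *Ptprg*. It occurs in 35.7% of all promoter windows on either strand. The letters TATAAA of the TATA box, TGTGGT of the RUNX core and TAATTA of the homeodomain core, searched on both strands, were in none of these 3 windows and in 13.6%, 16.8% and 5.3% of all windows in that order.

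Of the other 8 genes none was called lower or higher at an unadjusted p under 0.05 and 0.58 on the log2 scale. At these thresholds edgeR called 448 of 16519 genes lower (2.71%), 181 higher (1.10%) and 629 in either direction (3.81%), so that 0 of 8 is near the background. None of the 8 had an unadjusted p under 0.05, and none an adjusted p under 0.05. Over all genes edgeR gave no adjusted p under 0.05 (0%), with 729 lower and 523 higher genes at an unadjusted p under 0.05, while edgeR with the replicate block gave 132 lower and 29 higher, edgeR without *Dmp1*-Cre;*Setd2*fl/fl replicate 3 gave 447 lower and 114 higher, edgeR without replicate 3 of both groups 749 lower and 389 higher, edgeR with no filter 4 lower and 2 higher, DESeq2 115 lower and 24 higher and voom with quality weights 936 lower and 375 higher genes at an adjusted p under 0.05. The groups overlapped in all 8, and of all genes 7.98% were lower and 7.26% higher without overlap (15.2% in all). The log2 fold changes of these 8 had a median of -0.01, beside 0.02 over all genes tested, with 5 negative and 3 positive values.

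*Ptprg* (ENSMUSG00000021745, chr14:11553532-12242041) encodes the other receptor phosphatase with a carbonic anhydrase-like domain. It was at 77.5, 65.2 and 81.3 CPM in *Dmp1*-Cre;*Setd2*fl/fl pools, against 64.9, 67.6 and 80.4 CPM in control pools. The groups overlapped fully, with replicate 3 highest in both. The means were 74.7 ± 8.45 CPM in *Dmp1*-Cre;*Setd2*fl/fl and 71.0 ± 8.26 CPM in control pools (SD, n = 3 each; log2 fold change 0.07, standard error 0.13, 95% interval -0.24 to 0.39, edgeR adjusted p = 0.901). The interval stays inside the fold threshold in both directions, and without replicate 3 of both groups the value was 0.11. Per kb of exon, *Ptprz1* stood to *Ptprg* as 0.151, 0.109 and 0.216 in *Dmp1*-Cre;*Setd2*fl/fl pools and as 1.03, 0.939 and 0.618 in control pools. By this measure the relatives were at like levels in the controls and *Ptprg* was the higher by far in every *Dmp1*-Cre;*Setd2*fl/fl pool. The likeness in the controls depends on the exon lengths used, since by CPM the control mean was 102 for *Ptprz1* and 71.0 for *Ptprg*.

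*Ptn* (ENSMUSG00000029838, chr6:36714929-36810220) makes pleiotrophin, and was at 886, 739 and 657 CPM in *Dmp1*-Cre;*Setd2*fl/fl pools and at 746, 704 and 867 CPM in control pools. Values of *Dmp1*-Cre;*Setd2*fl/fl pools spanned the control range on both sides. The means were 761 ± 116 CPM in *Dmp1*-Cre;*Setd2*fl/fl and 772 ± 84.5 CPM in control pools (SD, n = 3 each; log2 fold change -0.02, standard error 0.16, 95% interval -0.39 to 0.35, edgeR adjusted p = 0.980). Without replicate 3 of both groups the value was 0.17, so its sign depended on those libraries.

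*Mdk* (ENSMUSG00000027239, chr2:91929805-91932297) makes midkine, and was at 309, 289 and 366 CPM in *Dmp1*-Cre;*Setd2*fl/fl pools and at 281, 317 and 370.4 CPM in control pools. The values interleaved, and replicate 3 was again the highest of each group. The means were 321 ± 39.8 CPM in *Dmp1*-Cre;*Setd2*fl/fl and 323 ± 45.1 CPM in control pools (SD, n = 3 each; log2 fold change -0.01, standard error 0.15, 95% interval -0.36 to 0.35, edgeR adjusted p = 0.994). Both ligands were thus abundant, at a control level per kb of exon above that of 98.5% (*Ptn*) and 99.2% (*Mdk*) of the genes tested. The ratio of *Ptn* to *Mdk* per kb came to 0.640, 0.572 and 0.402 in *Dmp1*-Cre;*Setd2*fl/fl pools and 0.595, 0.496 and 0.523 in control pools. With the ligands not called and the receptor low, the ratio of *Ptn* to *Ptprz1* per kb came to 110, 152 and 54.4 in *Dmp1*-Cre;*Setd2*fl/fl pools and 16.3, 16.1 and 25.4 in control pools, and that of *Mdk* to *Ptprz1* to 172, 266 and 135 in *Dmp1*-Cre;*Setd2*fl/fl pools and 27.5, 32.6 and 48.5 in control pools. The size of these ratios follows from the fall for which *Ptprz1* was chosen.

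*Cntn1* (ENSMUSG00000055022, chr15:92051165-92341967) encodes contactin 1, a membrane-anchored adhesion protein that binds the carbonic anhydrase-like domain of PTPRZ1. It was counted 39, 37 and 37 times in *Dmp1*-Cre;*Setd2*fl/fl and 27, 28 and 35 times in control pools, which was 1.87, 1.96 and 2.01 CPM in *Dmp1*-Cre;*Setd2*fl/fl and 1.43, 1.47 and 1.98 CPM in control pools. The highest control pool reached into the *Dmp1*-Cre;*Setd2*fl/fl range. The log2 fold change was 0.26 (standard error 0.25, 95% interval -0.34 to 0.85, edgeR adjusted p = 0.801), and 0.40 without replicate 3 of both groups (edgeR adjusted p = 0.401). At this low level, per kb above only 1.2% of the genes tested in the controls, a moderate change would not have been detectable.

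*Ncam1* (ENSMUSG00000039542, chr9:49502136-49798925), the neural cell adhesion molecule, was at 47.8, 38.5 and 58.2 CPM in *Dmp1*-Cre;*Setd2*fl/fl pools and at 57.3, 57.3 and 60.2 CPM in control pools. *Dmp1*-Cre;*Setd2*fl/fl replicates 1 and 2 were below all controls and replicate 3 lay within their range. The means were 48.2 ± 9.87 CPM in *Dmp1*-Cre;*Setd2*fl/fl and 58.3 ± 1.69 CPM in control pools (SD, n = 3 each; log2 fold change -0.27, standard error 0.16, 95% interval -0.64 to 0.10, edgeR adjusted p = 0.696). Without replicate 3 of both groups it was -0.40 (edgeR adjusted p = 0.108), still under the fold threshold.

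*Tnc* (ENSMUSG00000028364, chr4:63959785-64047015) encodes tenascin-C, a large matrix glycoprotein that binds PTPRZ1 and was the most abundant of the 9 transcripts. It was at 2747, 2217 and 3544 CPM in *Dmp1*-Cre;*Setd2*fl/fl pools and at 2859.7, 3293.5 and 3626 CPM in control pools. The groups overlapped, with *Dmp1*-Cre;*Setd2*fl/fl replicate 2 the lowest library and replicate 3 the highest of each group. The means were 2836 ± 668 CPM in *Dmp1*-Cre;*Setd2*fl/fl and 3259.6 ± 384 CPM in control pools (SD, n = 3 each; log2 fold change -0.20, standard error 0.21, 95% interval -0.70 to 0.29, edgeR adjusted p = 0.809), and without replicate 3 of both groups the value was -0.30 (edgeR adjusted p = 0.373). A long noncoding gene on the opposite strand, 8030451A03Rik, overlaps *Tnc*, and reads of the pair cannot be told apart by counting without strand. It was at 12.7, 8.16 and 15.4 CPM in *Dmp1*-Cre;*Setd2*fl/fl and 22.2, 20.2 and 15.3 CPM in control pools, and was called lower (log2 fold change -0.67, standard error 0.26, edgeR adjusted p = 0.644), on groups that overlapped. This call was lost without *Dmp1*-Cre;*Setd2*fl/fl replicate 1 (-0.70) or 2 (-0.45) and without control replicate 1 (-0.55) or 2 (-0.63), and the value was -1.01 without replicate 3 of both groups (edgeR adjusted p = 0.0193). Per kb of exon this gene was at 1.77 CPM in *Dmp1*-Cre;*Setd2*fl/fl and 2.81 CPM in control pools, against 355.8 and 408.9 CPM for *Tnc*.

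*Alk* (ENSMUSG00000055471, chr17:71868972-72604627), a receptor tyrosine kinase that pleiotrophin and midkine have been reported to activate, was near the limit of detection. It was counted 16, 6 and 24 times in *Dmp1*-Cre;*Setd2*fl/fl and 6, 6 and 14 times in control pools, which was 0.765, 0.318 and 1.30 CPM in *Dmp1*-Cre;*Setd2*fl/fl and 0.318, 0.316 and 0.794 CPM in control pools. Replicate 3 was the highest library of each group. The log2 fold change was 0.74 (standard error 0.61, 95% interval -0.71 to 2.19, edgeR adjusted p = 0.759), an interval too wide to tell a fall from a rise.

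*Sdc3* (ENSMUSG00000025743, chr4:130792537-130826319) encodes syndecan 3, a transmembrane heparan sulfate proteoglycan and pleiotrophin receptor. It was at 568, 512 and 964 CPM in *Dmp1*-Cre;*Setd2*fl/fl pools, against 863, 970.4 and 1133 CPM in control pools. *Dmp1*-Cre;*Setd2*fl/fl replicates 1 and 2 were well below every control, while replicate 3 lay inside the control range. The means were 681 ± 246 CPM in *Dmp1*-Cre;*Setd2*fl/fl and 989 ± 136 CPM in control pools (SD, n = 3 each; log2 fold change -0.54, standard error 0.26, 95% interval -1.15 to 0.07, edgeR adjusted p = 0.673), and the gene did not pass the test. It was the gene whose call depended most on the library kept. Leaving out *Dmp1*-Cre;*Setd2*fl/fl replicate 3 gave -0.87 (edgeR adjusted p = 0.0326), -0.76 without replicate 3 of both groups (adjusted p = 0.0199), and with the replicate number as a block -0.59 (edgeR adjusted p = 0.129), and it was called lower in each of these fits.

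**Figure D2:**
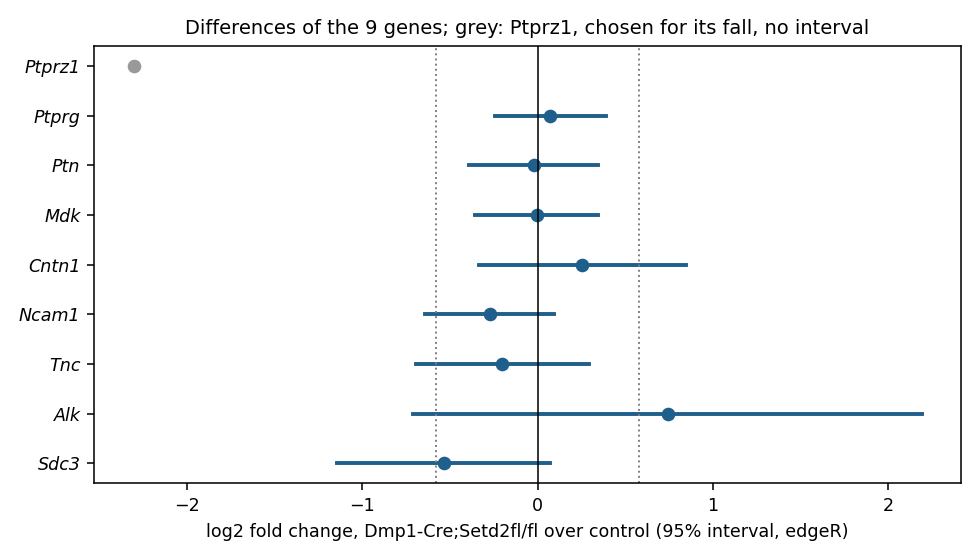
Log2 fold changes (x axis, *Dmp1*-Cre;*Setd2*fl/fl over control) of the 9 genes from the edgeR fit, with 95% intervals for all but *Ptprz1*, and dotted lines at the fold threshold of 0.58 in either direction. *Ptprz1* (grey, at -2.31) was chosen for its fall and is drawn without an interval, and the intervals of the other 8 genes include 0.

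Per kb of exon, the order of levels in *Dmp1*-Cre;*Setd2*fl/fl pools was *Tnc* (355.8 ± 83.8 CPM per kb; SD, n = 3 here and below), *Mdk* (190.5 ± 23.6), *Ptn* (100.8 ± 15.3), *Sdc3* (77.1 ± 27.9), *Ptprg* (6.795 ± 0.769), *Ncam1* (5.48 ± 1.12), *Ptprz1* (1.10 ± 0.480), *Cntn1* (0.114 ± 0.00430) and *Alk* (0.0836 ± 0.0518). In control pools it was *Tnc* (408.9 ± 48.2), *Mdk* (191.3 ± 26.8), *Sdc3* (111.9 ± 15.4), *Ptn* (102.4 ± 11.2), *Ncam1* (6.62 ± 0.192), *Ptprg* (6.46 ± 0.752), *Ptprz1* (5.45 ± 0.817), *Cntn1* (0.0956 ± 0.0180) and *Alk* (0.04998 ± 0.0289). The neighbours *Ptn* and *Sdc3*, *Ptprg* and *Ncam1*, and *Cntn1* and *Alk* in *Dmp1*-Cre;*Setd2*fl/fl pools had ranges of mean ± 1 SD that overlapped. In control pools this held for *Sdc3* and *Ptn*, for *Ncam1* and *Ptprg*, for *Ptprg* and *Ptprz1*, and for *Cntn1* and *Alk*. The ranges of *Ptprz1* and *Ptprg* thus overlapped in control pools and lay apart in *Dmp1*-Cre;*Setd2*fl/fl pools.

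*Ptprz1* belongs to the receptor-type protein tyrosine phosphatases, cell-surface enzymes that remove phosphate from tyrosine. Of these 20 were listed, and the family below means these 20 genes, which may not be all of them. Of the 16 other family members tested, 3 were called lower and none higher, where 2.71% of all genes tested were called lower, and the list without *Ptprg* had a median log2 fold change of -0.01, beside 0.02 over all genes tested. *Ptprh*, *Ptprn* and *Ptprq* were too low to test. *Ptprk*, which encodes a phosphatase of cell contacts, was at 69.7, 66.2 and 122 CPM in *Dmp1*-Cre;*Setd2*fl/fl and 161, 154 and 166 CPM in control pools, without overlap (log2 fold change -0.90, standard error 0.24, edgeR adjusted p = 0.625, and adjusted p = 0.0463 with the replicate block). *Ptprs*, a receptor for proteoglycan chains and the most abundant of the family in the controls, was at 429.8, 292 and 524 CPM in *Dmp1*-Cre;*Setd2*fl/fl and 635, 663 and 702 CPM in control pools (log2 fold change -0.68, standard error 0.21, edgeR adjusted p = 0.625). *Ptprr*, a phosphatase of MAP kinases, was at 0.765, 0.636 and 2.66 CPM in *Dmp1*-Cre;*Setd2*fl/fl and 4.56, 4.63 and 5.05 CPM in control pools (log2 fold change -1.81, standard error 0.53, edgeR adjusted p = 0.625). In all of these the groups did not overlap and *Dmp1*-Cre;*Setd2*fl/fl replicate 3 was the highest of its group. With *Dmp1*-Cre;*Setd2*fl/fl replicate 2 left out the call of *Ptprs* was lost, at -0.48. Without replicate 3 of both groups the log2 fold changes were larger in size, at -1.20 for *Ptprk* (edgeR adjusted p = 0.000255), -0.84 for *Ptprs* (edgeR adjusted p = 0.0323) and -2.69 for *Ptprr* (edgeR adjusted p = 0.000511). Leaving out *Dmp1*-Cre;*Setd2*fl/fl replicate 3 alone gave *Ptprr* -2.75. That pool was the nearest of its group to the controls in all of these genes, so its removal favours larger falls and smaller p-values.

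The other 13 tested members of the family were not called. *Ptpra*, *Ptprj*, *Ptprf* and *Ptpre* had log2 fold changes between -0.02 and 0.00, and *Ptprd* had 0.05. *Ptprz1* contributed 0.840%, 0.589% and 1.17% of the summed level of the family per kb in *Dmp1*-Cre;*Setd2*fl/fl pools, against 4.22%, 3.95% and 2.86% in control pools. Its rank by mean level per kb was 13 of 20 in *Dmp1*-Cre;*Setd2*fl/fl and 9 of 20 in control pools. The family sum without *Ptprz1* was 125.6, 108.8 and 135.6 CPM per kb in *Dmp1*-Cre;*Setd2*fl/fl and 137.5, 140.5 and 153.6 CPM per kb in control pools.

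**Figure D3:**
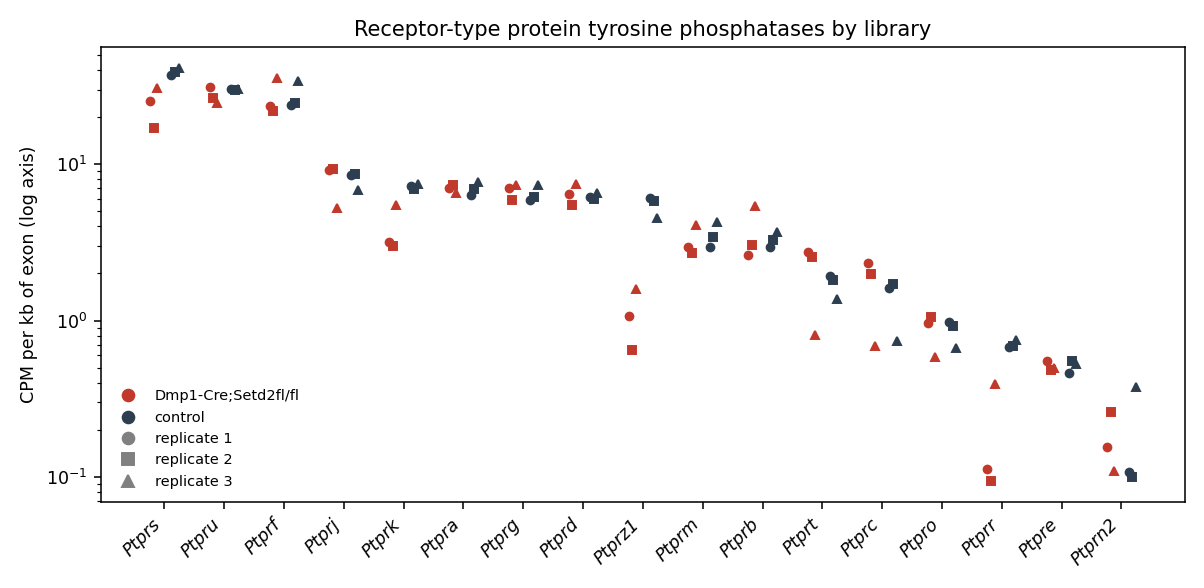
Levels of the 17 listed receptor-type protein tyrosine phosphatases that were tested, in CPM per kb of exon (log axis), in the 3 *Dmp1*-Cre;*Setd2*fl/fl pools (red, left of each pair) and the 3 control pools (dark blue). Symbols mark the replicates and genes are ordered by control level, with *Ptprz1*, *Ptprk*, *Ptprs* and *Ptprr* the genes whose *Dmp1*-Cre;*Setd2*fl/fl points all lie below their control points.

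Other receptors and surface partners of pleiotrophin and midkine gave no call, with 13 of 16 listed genes tested and a median log2 fold change of 0.12. *Nrp1*, a neuropilin that binds pleiotrophin, was at 81.3, 104.8 and 78.8 CPM in *Dmp1*-Cre;*Setd2*fl/fl and 64.9, 69.5 and 64.0 CPM in control pools (log2 fold change 0.42, edgeR adjusted p = 0.626). *Lrp1*, a large endocytic receptor that binds midkine, was at 898, 803 and 1105 CPM in *Dmp1*-Cre;*Setd2*fl/fl and 1237, 1362 and 1403 CPM in control pools (log2 fold change -0.51, edgeR adjusted p = 0.625). Neither pair of groups overlapped, but both fold changes were under the threshold. With *Dmp1*-Cre;*Setd2*fl/fl replicate 3 left out *Lrp1* passed it, at -0.65 (edgeR adjusted p = 0.0644), as it did without replicate 3 of both groups, at -0.60 (edgeR adjusted p = 0.0601). The integrin gene *Itgb3*, at -0.27 with all libraries, was called lower in the same fits, at -0.82 (edgeR adjusted p = 0.0241) and -0.80 (edgeR adjusted p = 0.00886). *Gpc2* was called lower without replicate 3 of both groups, at -0.66 (edgeR adjusted p = 0.13).

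Among 10 tested genes of other contactins and immunoglobulin adhesion molecules none was called, and the median log2 fold change was -0.11. *Cntn4*, a contactin relative, was at 16.4, 13.8 and 17.8 CPM in *Dmp1*-Cre;*Setd2*fl/fl and 21.8, 23.9 and 25.4 CPM in control pools, without overlap (log2 fold change -0.57, standard error 0.14, edgeR adjusted p = 0.604), just under the fold threshold. It was called lower without *Dmp1*-Cre;*Setd2*fl/fl replicate 1 (-0.58) or 3 (-0.65), without control replicate 1 (-0.62) and without replicate 3 of both groups (-0.59, edgeR adjusted p = 0.0454). *Chl1*, the close homologue of L1, was at 2.87, 3.02 and 2.99 CPM in *Dmp1*-Cre;*Setd2*fl/fl and 2.02, 2.00 and 2.55 CPM in control pools (edgeR adjusted p = 0.686). Of the 10 log2 fold changes 6 were negative and 4 positive.

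The 8 tested genes of other tenascins and large chondroitin sulfate proteoglycans had a median log2 fold change of -0.43 with 7 negative values and no call. *Bcan*, which encodes brevican, was at 14.1, 5.94 and 40.9 CPM in *Dmp1*-Cre;*Setd2*fl/fl and 47.2, 45.1 and 79.8 CPM in control pools (log2 fold change -1.50, standard error 0.66, edgeR adjusted p = 0.666). Within each replicate number the *Dmp1*-Cre;*Setd2*fl/fl pool was below its control, and with the replicate block *Bcan* was called lower (log2 fold change -1.81, edgeR adjusted p = 0.243), as was *Cspg4*, the NG2 proteoglycan (log2 fold change -0.59, edgeR adjusted p = 0.172). Without replicate 3 of both groups *Bcan* was at -2.19 (edgeR adjusted p = 0.0193) and *Cspg4* at -0.75 (edgeR adjusted p = 0.0323). *Vcan*, the most abundant of the list, was at 1038, 781 and 415 CPM in *Dmp1*-Cre;*Setd2*fl/fl and 881, 796 and 706 CPM in control pools (edgeR adjusted p = 0.950).

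Of the 14 substrates and intracellular partners of PTPRZ1 all were tested, with a median log2 fold change of 0.02. *Met*, the receptor of hepatocyte growth factor, was the one gene called, at 7.22, 11.3 and 8.04 CPM in *Dmp1*-Cre;*Setd2*fl/fl and 6.84, 6.05 and 4.54 CPM in control pools (log2 fold change 0.61, standard error 0.25, edgeR adjusted p = 0.655). The groups did not overlap, but the call was lost in 5 of 14 alternatives, without *Dmp1*-Cre;*Setd2*fl/fl replicate 2 (0.39), without control replicate 2 (0.64), without control replicate 3 (0.46), without replicate 3 of both groups (0.53) and by voom with quality weights (0.30). *Ctnnb1*, which makes the substrate beta-catenin, was at 1035, 1166 and 1108 CPM in *Dmp1*-Cre;*Setd2*fl/fl and 964, 1017 and 1192 CPM in control pools (edgeR adjusted p = 0.919), and the kinase gene *Fyn* at 237, 262 and 183 CPM in *Dmp1*-Cre;*Setd2*fl/fl and 177, 192 and 166 CPM in control pools (edgeR adjusted p = 0.665). The 5 lists held 15 (*Ptprg* left out), 13, 10, 8 and 14 tested genes in the order above, and 4 genes were called. Over all genes tested 3.81% were called in either direction. With the replicate block 7 were called, which added *Cntnap1*, *Bcan* and *Cspg4*, where over all genes 722 were lower and 339 higher. Without replicate 3 of both groups 14 were called, where of 16708 genes tested 1261 were lower and 750 higher.

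**Figure D4:**
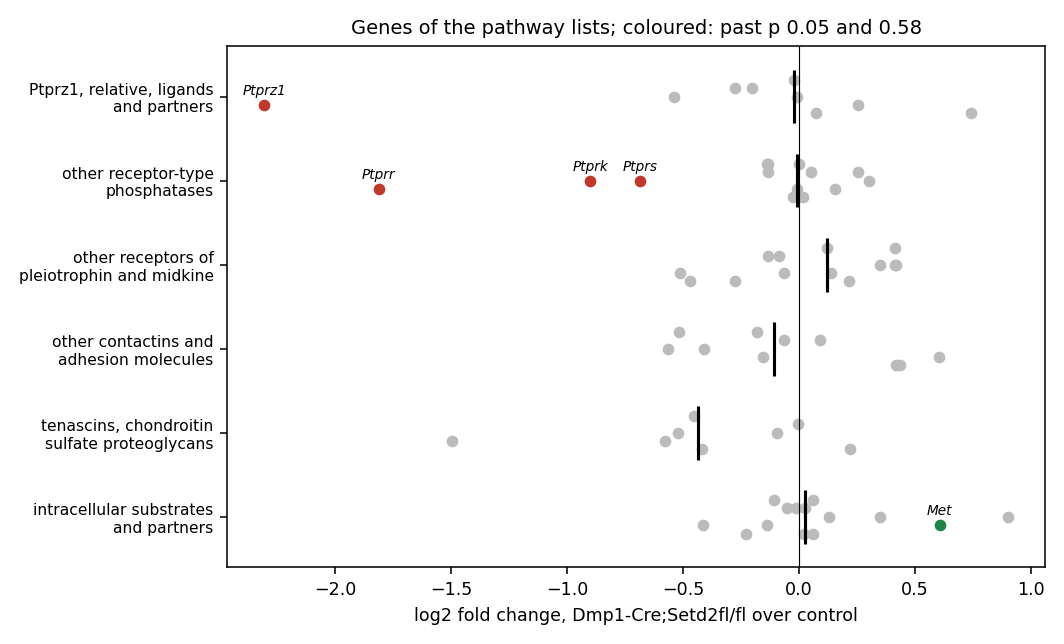
Log2 fold changes (x axis, *Dmp1*-Cre;*Setd2*fl/fl over control) of every tested gene of the 9 and of the 5 lists of related genes, with a black bar at each list's median. Coloured points passed an unadjusted p under 0.05 and 0.58 in size, and apart from *Ptprz1*, which was chosen for its fall, they are *Ptprr*, *Ptprk*, *Ptprs* and *Met*.

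The genes tested whose profile was nearest to that of *Ptprz1* were found by the root mean square difference over the 6 libraries of log2 CPM relative to the control mean. They were *Col11a1* (0.32), a chain of a fibrillar collagen, *Art5* (0.33), an ADP-ribosyltransferase gene, the long noncoding RNA *Rmst* (0.33), *Sema3e* (0.38), a secreted semaphorin, and *Phactr3* (0.38), a regulator of protein phosphatase 1. *Col11a1* was at 142, 115 and 358 CPM in *Dmp1*-Cre;*Setd2*fl/fl and 782, 773 and 769 CPM in control pools, and *Sema3e* at 14.8, 8.91 and 28.1 CPM in *Dmp1*-Cre;*Setd2*fl/fl and 63.7, 56.4 and 53.0 CPM in control pools. *Rmst* was counted only 1, 1 and 2 times in *Dmp1*-Cre;*Setd2*fl/fl and 12, 16 and 12 times in control pools. The prior count of 2 used for profiles draws such low counts toward the control mean. The edgeR log2 fold change of *Rmst* was -3.27, against -2.31 for *Ptprz1*, so its nearness depends on the prior count. Within the *Dmp1*-Cre;*Setd2*fl/fl group all 5 were highest in replicate 3, as was *Ptprz1*, and *Col11a1*, *Art5* and *Sema3e* were also lowest in replicate 2. The likeness was chosen on these 6 libraries and is a description.

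**Figure D5:**
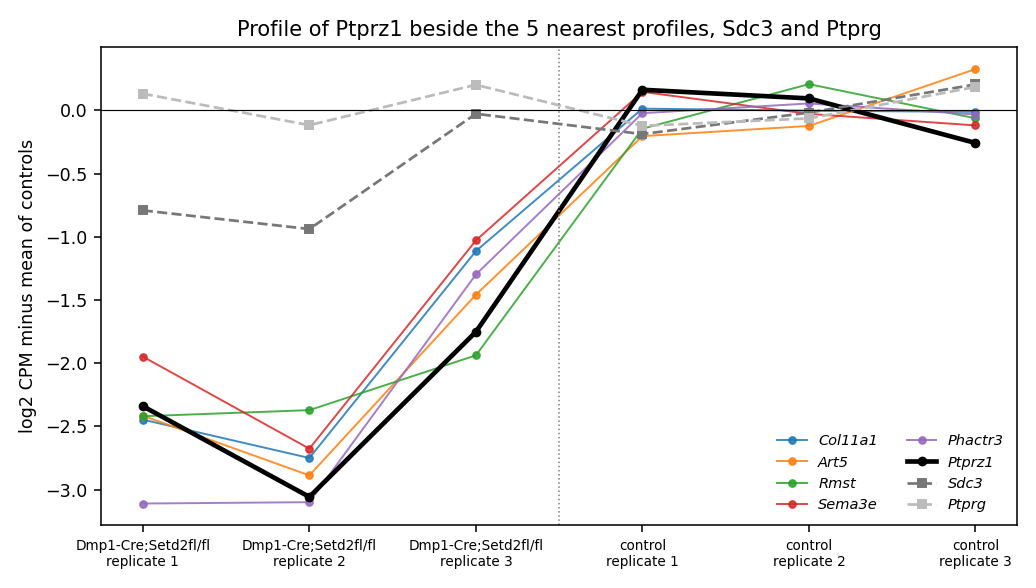
Log2 CPM relative to the control mean (y axis) in the 6 libraries (x axis, *Dmp1*-Cre;*Setd2*fl/fl left of the dotted line) for *Ptprz1* (black), the 5 genes with the nearest profiles (colours), *Sdc3* and *Ptprg* (grey, dashed). Lines only join the points of a gene. *Ptprz1* and the 5 genes are low in all *Dmp1*-Cre;*Setd2*fl/fl pools and least so in replicate 3, and *Sdc3* is low in replicates 1 and 2 of that group.

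Markers of other cells that could have been collected are given for their levels beside these results, and their part in them was not tested. Endothelial and mural markers summed to 513, 578 and 947 CPM in *Dmp1*-Cre;*Setd2*fl/fl and 496, 519 and 607 CPM in control pools, and neutrophil and macrophage markers to 958, 1240.3 and 323 CPM in *Dmp1*-Cre;*Setd2*fl/fl and 669, 725 and 407 CPM in control pools. Of these 9 markers the neutrophil granule genes *Ngp* (log2 fold change 2.36, edgeR adjusted p = 0.626) and *Camp* (log2 fold change 2.36, edgeR adjusted p = 0.650) were called higher and none lower, on groups that overlapped. Over all genes tested 1.10% were called higher. With single libraries left out the call was lost in 4 of 6 fits for *Ngp* (1.77 to 2.37) and in 5 of 6 for *Camp* (1.44 to 2.76). The neutrophil gene *S100a8* was at 23.3, 53.9 and 0.815 CPM in *Dmp1*-Cre;*Setd2*fl/fl and 6.31, 3.26 and 0.680 CPM in control pools, and was not called. Neuron markers summed to 48.3, 34.9 and 82.0 CPM in *Dmp1*-Cre;*Setd2*fl/fl and 52.8, 51.7 and 104 CPM in control pools, and bone cell markers to 5909, 5368 and 21324 CPM in *Dmp1*-Cre;*Setd2*fl/fl and 27888, 26894 and 35278 CPM in control pools. The bone cell sum was mostly *Col1a2*, a type I collagen gene also made by odontoblasts, at 4356, 3859 and 19010 CPM in *Dmp1*-Cre;*Setd2*fl/fl and 26333, 25141 and 33191 CPM in control pools, which was the 1 called of 4 tested genes (log2 fold change -1.64, edgeR adjusted p = 0.644), a call kept without *Dmp1*-Cre;*Setd2*fl/fl replicate 3 (-2.78) and lost in the other 5 fits without 1 library (-1.71 to -1.27). The others, *Alpl*, *Postn* and *Spp1*, had log2 fold changes of 0.01, -0.09 and 0.22, and the list median was -0.04. Over all genes tested 2.71% were called lower. Of the 11 odontoblast markers tested, 8 were called lower and none higher, against 2.71% of all genes called lower, with a median log2 fold change of -1.45.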

How the data were processed

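RNA from mDPCs of both genotypes (3 *Dmp1*-Cre;*Setd2*fl/fl and 3 control libraries, every one a pool of 3 biological replicates) was sequenced by the authors as paired ends, aligned with HISAT2 and counted with HTSeq, ignoring strand. Bowtie2, DESeq2 and GRCm39 are also named in the submitters' processing notes. Positions in the deposited table matched RefSeq GRCm38.p6 (47.4% of 24547 genes shared a start or end) far more often than GRCm39 (1.25% of 30436), so GRCm38 was used. The deposited values analysed are whole-number counts per gene, not normalized. The table also holds the authors' own comparison (a mean signal of normalized counts, p-values, and a fold change both as ratio and as log2), which was not used.

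Counts were tested with edgeR 4.0.16 (R 4.3.3) by its robust quasi-likelihood test after TMM scaling, on the 16519 genes that passed filterByExpr at a minimum count of 10, and p-values were adjusted over these genes after Benjamini and Hochberg. Calls needed an unadjusted p under 0.05 together with a log2 value of 0.58 or more in size, the cut-offs of the study's methods, and separately at an adjusted p under 0.05. CPM values use TMM-scaled library sizes, profiles a prior count of 2, and levels per kb the union of exons of GENCODE GRCm39, matched by gene ID or unique symbol for 99.27% of the genes tested. Promoters came from RefSeq. The fits were tested on simulated data.

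The members and gene lists were chosen with earlier results of these data known. Named genes were the 9 members, *Setd2*, the gene 8030451A03Rik that overlaps *Tnc*, the nearest tested gene on each side of *Ptprz1*, the 5 nearest profiles, defining genes of the marker lists, and of each pathway list every called gene and otherwise up to 2 with the smallest p. Genes of the deposited table also overlap *Ptprg*, *Ncam1*, *Alk* and *Sdc3*. Each of these had 18 counts or fewer in every library and is not named. *Vcan*, *Cspg4*, *Cntnap1*, *Ctnnb1*, *Fyn*, *Ptpra*, *Ptprj*, *Ptprf*, *Ptpre*, *Ptprd*, *Itgb3*, *Gpc2*, *Vim*, *Lhx8*, *Ngp*, *Camp*, *S100a8*, *Col1a2*, *Alpl*, *Postn* and *Spp1* were chosen after their values were seen. No pair of libraries of the same group agreed within sampling noise.

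Replicate numbers came from the sample titles or descriptions. Deviations from the group means correlated across genes at 0.453, 0.465 and 0.663 between same-numbered libraries, and the numbers were taken to pair them. However, *Dmp1*-Cre;*Setd2*fl/fl replicate 1 correlated with control replicate 2 at 0.455, and replicate 2 with control replicate 1 at 0.38. Only replicate 3 was thus matched by its number, and the replicate block takes the pairing of replicates 1 and 2 as given. Alternatives were DESeq2 1.42.0, limma 3.58.1 voom with quality weights, RLE size factors, scaling with the 100 highest genes removed, no filter on low counts, at least 10 counts in every library, the replicate block, and fits without each single library or without replicate 3 of both groups.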

Additional observations from a re-analysis of the deposited data

How the results depend on the processing

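The value of *Ptprz1* kept its direction under all 14 alternatives. This is no support for the fall, since the gene was picked for being much lower in every *Dmp1*-Cre;*Setd2*fl/fl pool. The values of *Ptn* and *Mdk*, which lie near 0, changed sign: by voom with quality weights they were 0.23 and 0.01, without replicate 3 of both groups 0.17 and 0.0084, and leaving out single libraries they ran from -0.14 to 0.072 (*Ptn*) and from -0.11 to 0.10 (*Mdk*), in none of these passing an adjusted p under 0.05. *Sdc3* was called lower by voom (-0.70), with the replicate block (-0.59) and without replicate 3 of both groups (-0.76), and ran from -0.87 to -0.37 over the fits without 1 library, where it was called only without *Dmp1*-Cre;*Setd2*fl/fl replicate 3. *Alk* was called higher by voom (1.06). The count of members called other than *Ptprz1*, 0 as reported, was 2 by voom, 1 with the block, 1 without replicate 3 of both groups and 0 to 1 without 1 library. Genes lower, 448 as reported, were 1109 by voom, 722 with the block, 1261 without replicate 3 of both groups, and with 1 library left out 282 (*Dmp1*-Cre;*Setd2*fl/fl replicate 2 out) to 1161 (*Dmp1*-Cre;*Setd2*fl/fl replicate 3 out). Genes higher, 181 as reported, were 338 with no filter, 458 by voom, 339 with the block, 750 without replicate 3 of both groups, and 83 to 677 without the same 2 libraries. Calls in the 5 lists, 4 as reported, were 7 with the block, 7 by voom and 14 without replicate 3 of both groups (these last settings were chosen for the lists after seeing the data), and 2 to 13 without 1 library, again *Dmp1*-Cre;*Setd2*fl/fl replicates 2 and 3. The replicate block changed no other call of a member. *Alk* could not be tested under the strict filter or without replicate 3 of both groups. The causes were not tested. Depth limits *Alk* and *Cntn1*, at 6 to 39 counts per library, and 3 pooled libraries per group limit the rest.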
